A study of Mus musculus with 7 samples.

Results

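DNA around 8 mouse genes that encode transcription factors of the T lineage, Bcl11b, Gata3, Tcf7, Lef1, Runx1, Runx3, Fli1 and Ets1, was followed in a reporter assay of DNase hypersensitive sites. The genes were covered by 7 windows of build mm9, 3200 kb in all, of 1150 kb for Bcl11b, 450 kb for Gata3, 110 kb for Tcf7, 210 kb for Lef1, 350 kb for Runx1, 180 kb for Runx3 and 750 kb for Fli1 and Ets1 together. Reads were counted in bins of 500 bp, and a bin was a member when each of the 3 plasmid inputs held at least 50 reads in it. This rule used no reporter count and left 72 bins of 29888 across the genome. Of these, 27 lay in the Bcl11b window, 11 in that of Runx1, 10 in that of Tcf7, 9 in that of Runx3, 6 in that of Lef1, 5 in that of Fli1 and Ets1, and 4 in that of Gata3. From the first to the last member bin, these spanned chr12:108362501-109285000 at Bcl11b, chr16:92572501-92866500 at Runx1, chr11:52037501-52132500 at Tcf7, chr4:134619501-134762500 at Runx3, chr3:130810001-130941000 at Lef1, chr9:32323501-32736500 at Fli1 and Ets1, and chr2:9486001-9801500 at Gata3. The windows held 2602 bins with any input read, of which 272 passed the minimum in at least 1 input. The 72 bins formed 61 separate stretches, 51 of them a single bin, so neighbouring bins can belong to 1 site.

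The assay was CapStarr-seq, in which captured fragments are cloned into a reporter plasmid so that each fragment is transcribed in the RNA it regulates. The host was P5424, a mouse line of immature T cells, and the plasmids carried 1 of 3 promoters: the super core promoter SCP1, pPGK of the phosphoglycerate kinase gene, and one that the labels call pR-Ea. The labels give 4 reporter RNA libraries (SCP1, pPGK, pPGK_PMA_I and pR-Ea) and 3 plasmid inputs (SCP1, pPGK and pR-Ea), each group with 1 library, and the pPGK_PMA_I library was read against the pPGK input. PMA, a phorbol ester, and ionomycin, a calcium ionophore, together mimic T cell receptor signalling; the labels' treatment field names both for all samples. Only 1 library has them in its title, which was used here, and whether the others were unstimulated cannot be told from the labels.

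Tcf7 encodes TCF-1, an HMG-box factor switched on by Notch signals in early thymocytes, and Lef1 encodes its close relative. Gata3 encodes a zinc finger factor needed from the earliest T cell steps and again for CD4 cells, and Bcl11b a zinc finger factor that marks commitment to the T lineage and is controlled in part by distant elements in a gene desert beside it. Runx1 and Runx3 encode DNA-binding subunits of core binding factor; Runx3 acts in CD8 cells, where it silences Cd4. Ets1 and Fli1 are neighbouring genes of the ETS family, whose products bind many T cell enhancers.

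The promoter table from RefSeq, build GRCm38.p6, matched 6 of the 8 genes, with 12 promoters of 300 bases each. Sequences of the bins themselves were not used here, because the genome given with the files is of another build. A sequence that Runx1 and Runx3 share is shown because it holds 2 copies of the RUNX hexamer in tandem, each ACCACA as printed, which reads TGTGGT on the other strand. The capitals mark the 14 bases of the tandem.
Runx1, chr16:92826025-92826054, minus strand: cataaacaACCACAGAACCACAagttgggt
Runx3, chr4:135120503-135120532, plus strand: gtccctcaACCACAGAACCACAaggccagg
The 14 capital letters are identical in both. They begin at base 29 after the start of Runx1, in its transcribed part, and 134 bases before the start of Runx3. Searched on both strands, the letters ACCACAGAACCACA were found in 4 of 32851 promoters (0.0122%), from 4 genes, whereas a single RUNX hexamer (letters TGTGGT, with TGCGGT as the variant searched) was found in 22.4% of them. The letters were taken from the Runx1 and Runx3 promoters after the single matches had been seen, so both of these promoters are among the 4. A string of 14 bases matches less often than a hexamer by its length alone, so the shares are not alike measures. A match is not a site shown to be bound. No sequence could be placed among the bins, so it is not known which bin holds it, or whether a bin lies in an exon, an intron or a UTR.

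Activity is the log2 ratio of a reporter's reads to its input's reads, each scaled to the reads of all 29888 bins and with 1 read added. A value of 0 therefore means the average output of the tested bins, since no inert insert was identified to set a baseline. A bin was called above or below input when its log2 ratio was at least 1 in size, a 2-fold difference, and its exact 95% Clopper-Pearson interval excluded 0. Each group held 1 library, so no value has a replicate check, and no p-value is given. Reporter reads numbered 54992717 in the SCP1 file, 72217277 in the pPGK file, 51450446 in the pR-Ea file and 61707100 in the pPGK_PMA_I file, and input reads 45278192, 30248710 and 18940646 for the SCP1, pPGK and pR-Ea plasmids. The median member bin held 358 SCP1, 149.5 pPGK and 150.5 pR-Ea input reads, and 575, 481.5 and 479 reporter reads with SCP1, pPGK and pR-Ea, and 573.5 with pPGK_PMA_I. The intervals cover counting error only, and PCR copies are not independent molecules; the standard error over distinct 5′ positions in a bin (SE) is therefore given too.

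The median bin of the T lineage loci sat above the median of all bins with every promoter, though not every member did. The members also held fewer input reads, with medians of 358, 149.5 and 150.5 for SCP1, pPGK and pR-Ea. Over all bins these were 488, 188 and 186, and the part of depth in the activities was not tested. The members' median activities were 0.15, 0.43 and 0.21 for SCP1, pPGK and pR-Ea, and over all bins -0.15, 0.07 and -0.03. With pPGK, 57 of 72 bins (79.2%) were above 0, against 54.1% of all bins; with SCP1 there were 42 (58.3% against 40.7%) and with pR-Ea 46 (63.9% against 48.2%). In all, 28 bins (38.9%) were above 0 with all 3 promoters and 9 (12.5%) below 0 with all 3, where all bins gave 21.4% and 27.3%. The members' median stayed above that of all bins in these 3 libraries and in the pPGK_PMA_I library under each alternative run. Runs that set the median to 0 or changed the interval or the SE could not alter this gap. With SCP1, 4 bins were called above input and 4 below (background 3.76% and 14.6% of all bins); with pPGK 1 and 3 (background 3.73% and 9.53%); and with pR-Ea 1 and 1 (background 0.813% and 8.26%). Bins below input thus made up 5.56%, 4.17% and 1.39% of the members, less than those background shares, and this difference was not tested. Counting distinct positions in place of reads gave 1, 2 and 0 bins above input and none below with SCP1, pPGK and pR-Ea. All bins then gave 0.488%, 1.43% and 0.0636% above and 5.17%, 1.93% and 1.51% below. This count leaves out repeated reads at a position, so it can move deep bins toward 0. When each reporter and input lost its own position with most reads, the pPGK count above input was 10 of 72 (13.9%, against 6.32% of all bins). It was 1 before, so this count moved from under to over its background. Reporter and input could lose different positions and unlike shares of reads, and the input minimum was not applied again. The Tcf7 bin chr11:52088001-52088500, with 98.1% of its 54 pPGK input reads at 1 position, went from -0.17 to 3.19 with pPGK.

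**Figure D1:**
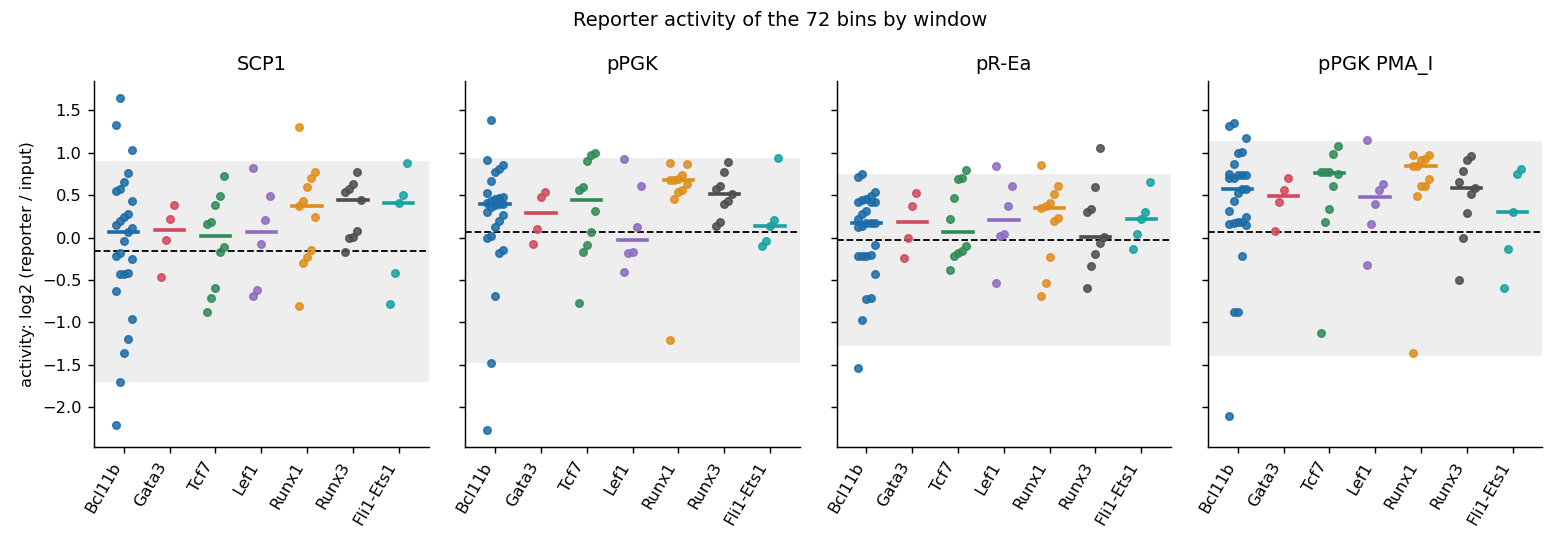
Activity of each of the 72 bins (log2 reporter over input, vertical axis) by window (horizontal axis), 1 panel per reporter library. Each point is a bin, the coloured bar is the window's median, the dashed line is the median of all 29888 bins and the grey band their central range from the 5th to the 95th percentile; most bins lie within the band, and the lowest points with SCP1 and pPGK are in the Bcl11b window.

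The Tcf7 window was the densest, with 9.09 member bins per 100 kb, and placed a low bin beside high ones. Bin chr11:52096501-52097000 had the most input reads of the window and the lowest activity, with 1654 reporter and 2390 input reads with SCP1, 1133 and 800 with pPGK, 1747 and 838 with pR-Ea, and 960 reporter reads with pPGK_PMA_I. With SCP1 its activity was -0.88 (SE 0.20), with pPGK it was -0.77 (SE 0.16), and pR-Ea gave -0.39 (SE 0.10); it was called below input in the pPGK_PMA_I library alone, at -1.12 (SE 0.13). It was low on both strands in each library. The bin just before it in the same stretch, chr11:52096001-52096500, was at 0.39, -0.09 and 0.22 with SCP1, pPGK and pR-Ea. The next stretch began 500 bp further on: chr11:52097501-52098000 had the highest mean activity of the window, at 0.73 (SE 0.18), 0.90 (SE 0.30) and 0.70 (SE 0.15) with SCP1, pPGK and pR-Ea, and its neighbour chr11:52098001-52098500 followed with 0.49, 0.56 and 0.46. So bins 1 kb apart lay on opposite sides of 0 with all 3 promoters. Counted as distinct positions, the low bin was near 0, at -0.04, 0.08 and -0.18. With SCP1, its 1654 reporter reads lay at 121 positions and its 2390 input reads at 138. Repeated reads at a position do not enter this count, so it cannot decide whether the read values hold.

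In the Lef1 window, 6 bins in 4 stretches had median activities of 0.06, -0.03 and 0.21 with SCP1, pPGK and pR-Ea, and none of them was called above or below input with these promoters. The shares of all bins called ran from 0.813% (above, pR-Ea) to 14.6% (below, SCP1). Among 6 bins, a lack of calls cannot be told apart from these shares. Bin chr3:130910001-130910500 had the highest mean activity, with 0.49 (SE 0.19), 0.92 (SE 0.24) and 0.61 (SE 0.14), and passed the 2-fold rule with pPGK_PMA_I at 1.15 (SE 0.31). Its neighbour chr3:130910501-130911000 was at -0.69, 0.60 and 0.05, so the pair was on opposite sides of 0 with SCP1. Bin chr3:130810001-130810500 was near 0 with SCP1 (854 reporter, 711 input reads; -0.08, SE 0.17) and pPGK (428 and 200 reads; -0.18, SE 0.18) and higher with pR-Ea (1002 and 205 reads; 0.84, SE 0.11). The bin after it, chr3:130810501-130811000, had the lowest mean activity, at -0.62, -0.40 and -0.53. The bin with most input, chr3:130815001-130815500, lay close to 0 with all 3 promoters, at 0.20, 0.12 and 0.37.

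The Gata3 window held only 4 member bins in 450 kb, and none was called in any library. Across libraries, the share of all bins called ran from 0.813% (above input, pR-Ea) to 14.6% (below input, SCP1). With 4 bins, the lack of calls cannot be told apart from these shares. Bin chr2:9515501-9516000 had both the most input and the highest mean activity, at 0.38 (SE 0.12), 0.47 (SE 0.20), 0.52 (SE 0.23) and 0.70 (SE 0.13) for SCP1, pPGK, pR-Ea and pPGK_PMA_I. The lowest, chr2:9801001-9801500, was at -0.46 (SE 0.18), -0.07 (SE 0.16), -0.01 (SE 0.17) and 0.07 (SE 0.08) in the same order. These 4 bins therefore spanned less than the 2-fold rule on either side in every library.

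The Bcl11b window, with 27 of the 72 members, held 7 of the 8 bins called with SCP1, 3 of the 4 called with pPGK and 1 of the 2 called with pR-Ea. With SCP1, its 3 bins above input were 11.1% of the window (background 3.76%) and its 4 below were 14.8% (background 14.6%), the latter near the share of all bins. With pPGK, 3.7% of the window was above and 7.41% below (background 3.73% and 9.53%). The pR-Ea shares were 0% and 3.7% (background 0.813% and 8.26%), so neither promoter gave more calls here than that background. Its 27 bins had medians of 0.06, 0.40 and 0.17 with SCP1, pPGK and pR-Ea, with extremes of -2.20 and 1.65 with SCP1. The highest bin was chr12:109203001-109203500, 1003 kb from the start of the window. It held 1350 reporter and 338 input reads with SCP1, 1036 and 163 with pPGK, 691 and 208 with pR-Ea, and 1065 reporter reads with pPGK_PMA_I. Relative to input this was 3.14-fold with SCP1 (log2 1.65, SE 0.21), 2.62-fold with pPGK (1.39, SE 0.15), 1.22-fold with pR-Ea (0.28, SE 0.14) and 2.49-fold with pPGK_PMA_I (1.32, SE 0.14). The bin was thus high with SCP1 and pPGK and near the average with pR-Ea, and both strands gave the same picture, with 1.67 and 1.60 for SCP1 and 0.29 and 0.26 for pR-Ea on the plus and minus strand. Counted as distinct positions it kept 1.26 with SCP1 and 1.13 with pPGK. The bin directly before it, chr12:109202501-109203000, was called above input with SCP1 (674 and 258 reads; 1.04, SE 0.41) and was at 0.77 with pPGK and -0.22 with pR-Ea. A further SCP1 call in the window, chr12:109284001-109284500, which was named after its value was seen, had 857 reporter and 269 input reads and an activity of 1.32 (SE 0.32), with 0.48 and 0.46 under pPGK and pR-Ea.

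Bin chr12:108663001-108663500 of the Bcl11b window was the only member called below input with all 3 promoters (1.39% of members, against 3.67% of all bins). It held 237 reporter and 428 input reads with SCP1, 280 and 324 with pPGK, 427 and 455 with pR-Ea, and 462 reporter reads with pPGK_PMA_I. Its activity was -1.20 (SE 0.18), -1.48 (SE 0.34), -1.54 (SE 0.18) and -0.87 (SE 0.19) in that order, that is 0.437, 0.359, 0.345 and 0.546 of the average bin. The bin just before it missed the minimum with 49 reads in the pPGK input and was at -0.88, -1.49 and -1.09 with SCP1, pPGK and pR-Ea. The strands differed: with pPGK the plus strand was at 0.20 and the minus strand at -2.26, whereas with SCP1 it was the plus strand, at -2.91 against -0.99, that was lower. By distinct positions the bin stayed below 0 with each promoter, at -0.46, -0.91 and -0.77.

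The lowest activity with SCP1 and with pPGK was that of chr12:108733001-108733500, also beside Bcl11b. It had 61 reporter and 224 input reads with SCP1, 74 and 149 with pPGK, 289 and 175 with pR-Ea, and 90 reporter reads with pPGK_PMA_I. Activity was -2.20 (SE 0.98), -2.27 (SE 0.50), -0.73 (SE 0.30) and -2.10 (SE 0.51), but by distinct positions it was -0.58, 0.05, -0.39 and 0.13, so the low pPGK and pPGK_PMA_I values were seen in reads only. This bin is uncertain, because 61.6% of its SCP1 input reads lay at 1 position. With the top position of reporter and input each left out, the SCP1 value was -1.04. In addition, 52.3% of its pPGK reporter reads were left out for low mapping quality (median of the members 1.33%). Its low values came from 1 strand, with -3.91, -3.67 and -1.46 on the plus strand and 0.00, 0.57 and -0.07 on the minus strand for SCP1, pPGK and pR-Ea. The neighbouring bin chr12:108732501-108733000 was at -0.96, -0.69 and -0.97.

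Other Bcl11b bins were low with SCP1 alone. Bin chr12:108473001-108473500 had 140 reporter and 361 input reads with SCP1 (-1.71, SE 0.26), 313 and 143 with pPGK (-0.15, SE 0.27) and 247 and 105 with pR-Ea (-0.22, SE 0.17). Bin chr12:109080501-109081000 had 83 and 169 reads with SCP1 (-1.36, SE 0.54), 701 and 218 with pPGK (0.41, SE 0.20) and 303 and 98 with pR-Ea (0.17, SE 0.19). Both were thus below input with SCP1 and near the average otherwise, although by distinct positions the second was at 0.00 with SCP1. In the second bin, 27.4% of the pPGK and 20.2% of the SCP1 reporter reads were left out for low mapping quality. The bin with most input, chr12:108973501-108974000, was at -0.18, 0.53 and 0.17 with SCP1, pPGK and pR-Ea and just met the rule with pPGK_PMA_I, 2899 reporter reads against 554 of input (SE 0.12).

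**Figure D2:**
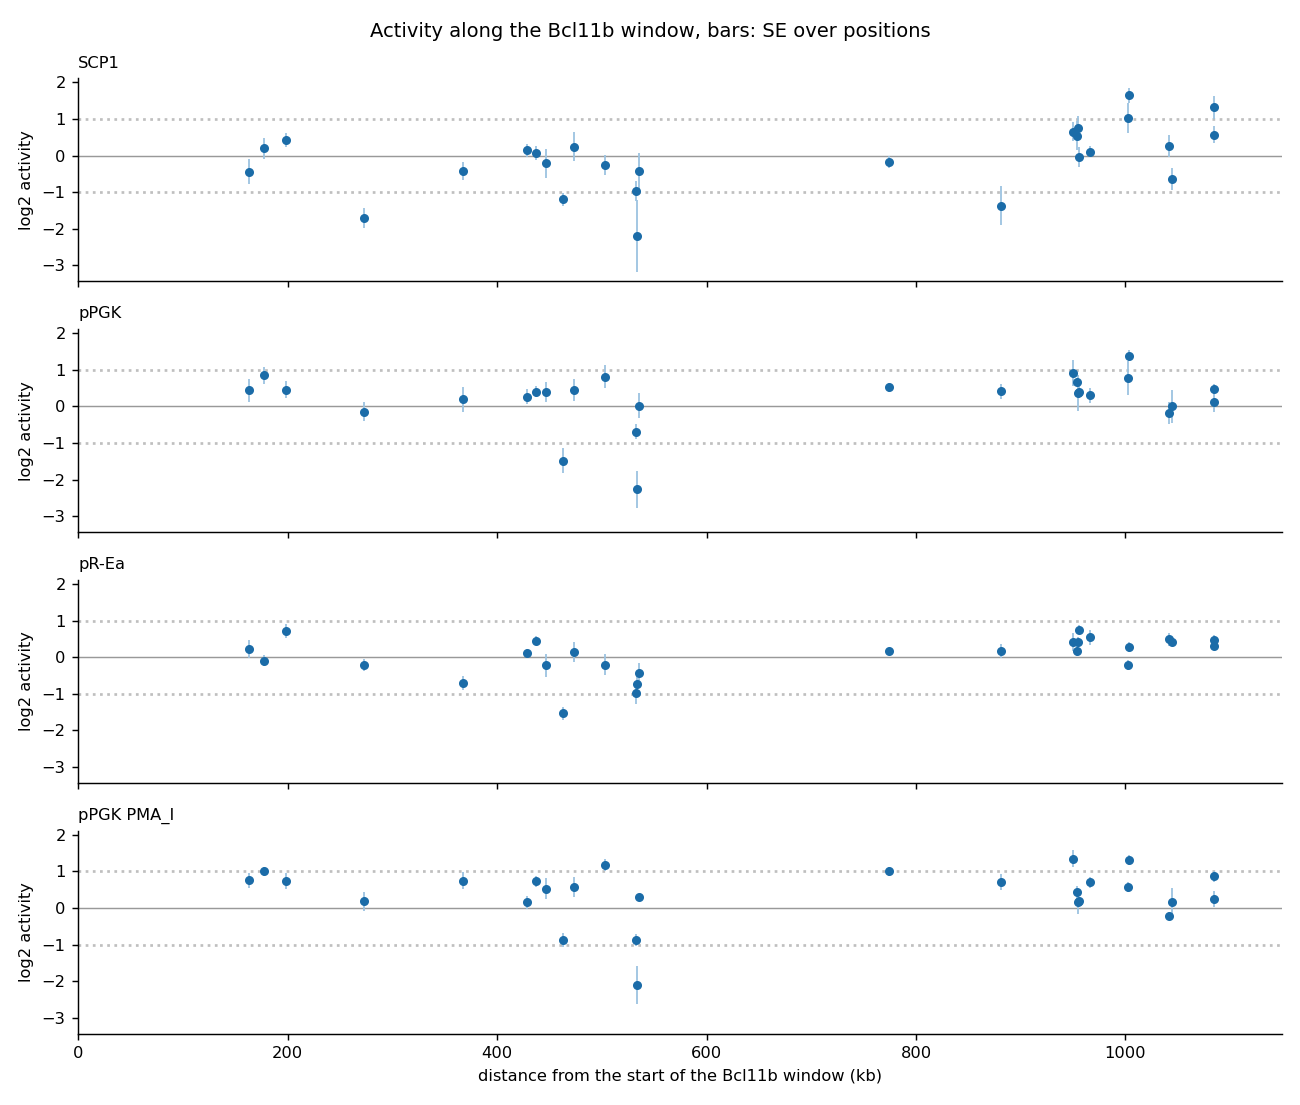
Activity (log2 reporter over input, vertical axis) of the 27 member bins along the Bcl11b window (distance from the window's start in kb, horizontal axis), 1 panel per reporter library. Points are bins, bars are the SE over positions and dotted lines mark a log2 ratio of 1 in either direction; the bin at 1003 kb is highest with SCP1 and pPGK and at 0.28 with pR-Ea, and the bin at 463 kb is below -1 with all 3 promoters.

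The 11 Runx1 bins had median activities of 0.37, 0.67 and 0.35 with SCP1, pPGK and pR-Ea, and 10 of them were above 0 with pPGK. The highest was chr16:92801501-92802000, with 1457 reporter and 463 input reads with SCP1, 581 and 130 with pPGK, and 648 and 179 with pR-Ea. SCP1 placed it above input (1.31, SE 0.24), whereas pPGK gave 0.88 (SE 0.16) and pR-Ea 0.40 (SE 0.16), so its order of promoters was that of the highest Bcl11b bin. The lowest Runx1 bin, chr16:92866001-92866500, was at -0.80 (SE 0.27), -1.20 (SE 0.26) and -0.69 (SE 0.23) with SCP1, pPGK and pR-Ea and at -1.37 (SE 0.34) with pPGK_PMA_I, and only the pPGK and pPGK_PMA_I values met the rule. Of its pPGK reporter reads, 33.6% were left out for low mapping quality, and the low pPGK value came from the plus strand (-1.57, with the minus strand above 0). The bin after it missed the minimum with 46 reads in the pR-Ea input and was at -2.89 with SCP1, from 11 reporter and 69 input reads, but at -0.55 with pPGK, -0.34 with pR-Ea and -0.12 with pPGK_PMA_I. The bin with most input, chr16:92572501-92573000, was at 0.43, 0.54 and -0.23.

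All 9 Runx3 bins were above 0 with pPGK, with a median of 0.51, and 8 were above 0 with SCP1, with a median of 0.44. With pR-Ea the median was 0.01. The only member called above input with pR-Ea was nevertheless a Runx3 bin, chr4:134708501-134709000, named after its value was seen: it held 407 reporter and 71 input reads with pR-Ea (1.06, SE 0.27), 430 and 336 with SCP1 (0.01, SE 0.35) and 279 and 67 with pPGK (0.77, SE 0.34). The bin with most input, chr4:134619501-134620000, and its neighbour chr4:134620001-134620500 went the other way, at 0.54 and 0.44 with SCP1, 0.14 and 0.61 with pPGK and -0.34 and -0.59 with pR-Ea. In these neighbours 33.9% and 38.1% of the pPGK reporter reads were left out for low mapping quality. The highest mean activity was that of chr4:134709501-134710000, at 0.64 (SE 0.18), 0.89 (SE 0.20) and 0.34 (SE 0.14), and the lowest that of chr4:134676001-134676500, at 0.08, 0.40 and -0.20.

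The window of Fli1 and Ets1 was the sparsest, with 0.667 member bins per 100 kb, and none of its 5 bins was called against input. Background shares ran from 0.813% (above input, pR-Ea) to 14.6% (below input, SCP1) of all bins. The lack of calls among 5 bins cannot be told apart from these shares. Bin chr9:32503501-32504000 had the most input and the lowest mean activity, with 585 reporter and 794 input reads with SCP1 (-0.79, SE 0.29), 751 and 332 with pPGK (-0.09, SE 0.29) and 1441 and 427 with pR-Ea (0.31, SE 0.13). The highest, chr9:32736001-32736500, was at 0.88 (SE 0.37), 0.93 (SE 0.36) and -0.13 (SE 0.33), and held 52 SCP1 input reads, close to the minimum. The first of these bins was thus highest with pR-Ea and the second lowest with it.

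Activities with different promoters were then compared bin by bin, in 3 pairs of promoters. A bin was called when the activities differed at least 2-fold and the 95% interval from the SE over positions excluded 0. The comparisons share libraries and so are not independent of each other. With pPGK, 5 member bins were higher than with SCP1 and none was lower (background 8.28% and 2.77%). For pR-Ea, 5 bins were called above their SCP1 activity and 4 under it (background 9.47% and 5.79%), and 2 were called above and 4 under their pPGK activity (background 5.50% and 6.56%). The SCP1 split of pR-Ea became 2 higher and 7 lower, and its pPGK split 2 and 2, when the median log2 ratio was set to 0. All bins then gave 6.75% and 7.91%, and 6.64% and 5.18%. The counts of called members also rest on the form of the SE: taking reporter and input positions as unrelated left 0 and 0, 1 and 1, and 0 and 0 calls. With that form all bins gave 1.59% and 0.854%, 5.14% and 3.37%, and 2.1% and 1.23%.

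The highest Bcl11b bin, chr12:109203001-109203500, had a log2 difference of -1.37 (SE 0.25) for pR-Ea against SCP1 and -1.11 (SE 0.20) against pPGK, and its neighbour chr12:109202501-109203000 differed by -1.26 (SE 0.43) between pR-Ea and SCP1. By distinct positions the pR-Ea differences stayed negative, at -0.87 from pPGK for the first bin and -1.10 from SCP1 for its neighbour. The Bcl11b bins low with SCP1 alone gave the opposite sign: chr12:109080501-109081000 was higher with pPGK by 1.77 (SE 0.57) and with pR-Ea by 1.54 (SE 0.57), and chr12:108473001-108473500 by 1.56 (SE 0.37) and 1.49 (SE 0.31). By distinct positions the first bin's differences were -0.02 and 0.08, and the second's 0.62 and 0.70. Bin chr12:108733001-108733500 had a difference of 1.54 (SE 0.58) from pPGK to pR-Ea in reads and of -0.44 by distinct positions, so its direction turned, and 52.3% of its pPGK reporter reads had been left out. At Runx3, chr4:134620001-134620500 had pR-Ea differences of -1.04 (SE 0.29) from SCP1 and -1.20 (SE 0.28) from pPGK. The difference from pPGK depended on the strand. On the plus strand pR-Ea was the higher, at -0.60 against -1.34 with pPGK (74 reporter and 78 input reads). On the minus strand pR-Ea was at -0.84 and pPGK above 0. The pR-Ea value lay under that of SCP1 on both strands. At Lef1, chr3:130810001-130810500 was higher with pR-Ea than with pPGK by 1.01 (SE 0.21). At Tcf7, chr11:52037501-52038000 was higher with pPGK than with SCP1 by 1.31 (SE 0.58), from 346 reporter and 94 input reads against 61 and 79. Its pPGK input reads lay at only 4 positions, 45.7% of them at 1, and 50.6% of its pPGK reporter reads lay at 1 position. In the window of Fli1 and Ets1, chr9:32503501-32504000 was higher with pR-Ea than with SCP1 by 1.09 (SE 0.31), and chr9:32736001-32736500 differed by -1.07 (SE 0.49) from pPGK to pR-Ea, a value that shrank to -0.48 without the position with most reads and was 0.09 by distinct positions. For the Runx3 bin the distinct-position differences were -0.40 and -1.01, for the Lef1 bin 0.21, for the Tcf7 bin 0.71 and for the first Fli1 and Ets1 bin 0.37.

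**Figure D3:**
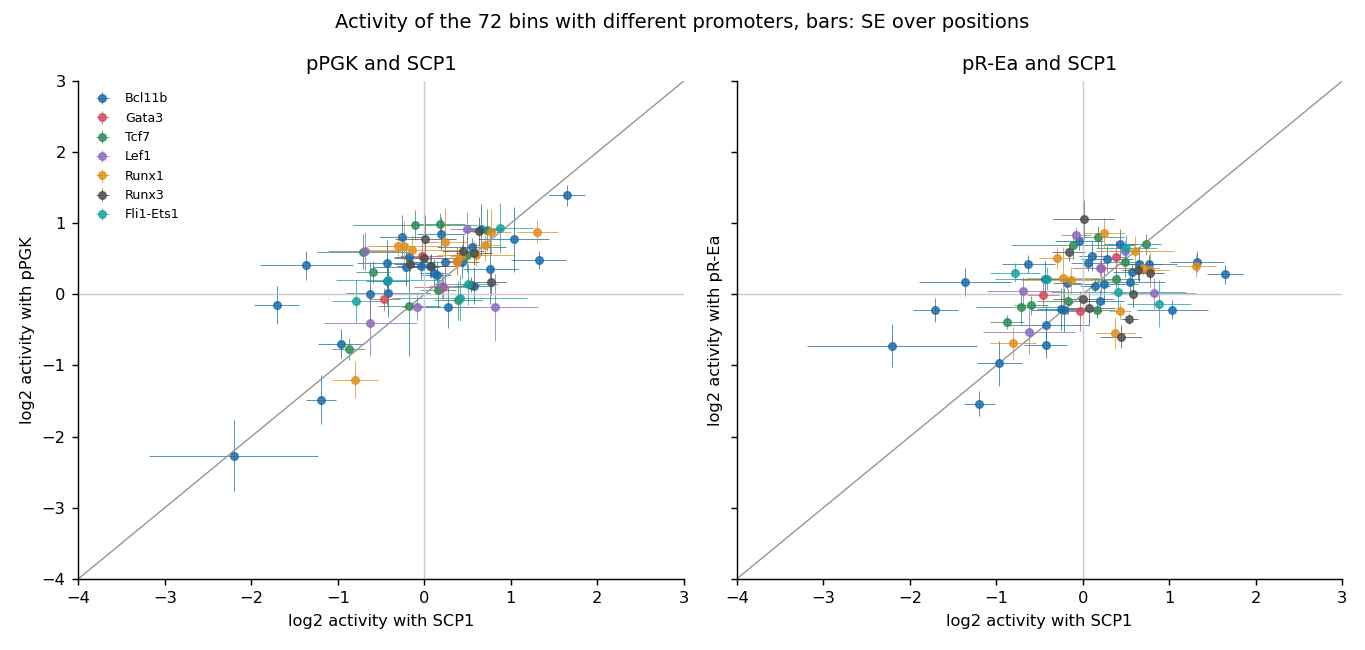
Activity of the 72 bins with SCP1 (horizontal axis, log2) against that with pPGK (left) and pR-Ea (right, vertical axes, log2). Points are bins coloured by window, bars are the SE over positions and the diagonal marks equal activity; the Bcl11b bin at 1.65 with SCP1 lies near the diagonal for pPGK, at 1.39, and well under it for pR-Ea, at 0.28.

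Across the 72 bins, SCP1 and pPGK activity had a Spearman's rho of 0.47, SCP1 and pR-Ea activity one of 0.37, and pPGK and pR-Ea activity also 0.37, where all 29888 bins gave 0.58, 0.41 and 0.46. These are descriptions over bins that share libraries, and neighbouring bins share fragments. Of 11 neighbouring pairs of member bins, all 11 lay on the same side of 0 with pPGK, and 8 did so with SCP1 as with pR-Ea. The activities of the 2 strands of a bin had a rho of 0.81 with SCP1 (67 bins) and 0.79 with pR-Ea (64 bins), and of 0.03 with pPGK and 0.31 with pPGK_PMA_I (52 bins each), over bins with at least 20 input reads on each strand. With pPGK and pPGK_PMA_I the strands of a member bin thus ranked the bins differently. Among the pPGK activities, those with fewer input reads tended to be higher (rho -0.34 with log2 input reads, -0.17 over all bins), and the part of this in the pPGK values was not tested. With pPGK_PMA_I the members' rho was -0.36 (-0.25 over all bins), with SCP1 0.10 and with pR-Ea -0.07.

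The last comparison set the pPGK_PMA_I reporter reads against the pPGK reporter reads. The labels do not tell whether the pPGK library was unstimulated, so the libraries differ in PMA and ionomycin by title only. No member bin passed the rule in either direction (background 0.816% higher and 0.457% lower). The median log2 ratio was 0.15 against 0.05 for all bins, and 51 of 72 bins (70.8%) were above 0, against 56.4% of all bins. Filtering each file on its own mapping quality gave medians of 0.05 against -0.02, and distinct positions gave 0.06 against -0.01. By distinct positions 39 of 72 were above 0, and 47 were when each library lost its own position with most reads. At Lef1 the 6 bins ranged from 0.03 to 0.75, but only 3 of the 6 were above 0 under either of these alternatives. The bin at 0.75, chr3:130940501-130941000, had 66.4% of its pPGK and 90.3% of its pPGK_PMA_I reporter reads at 1 position each. Without these positions it was at -0.96. In reads, the bins above 0 were 19 of 27 at Bcl11b, 8 of 10 at Tcf7, 8 of 11 at Runx1, 5 of 9 at Runx3, 3 of 4 at Gata3 and 2 of 5 at Fli1 and Ets1. The extremes, named after their values were seen, were at Tcf7 and Runx3. The Tcf7 bin chr11:52088001-52088500 went from 117 to 218 reads, a log2 ratio of 0.78 (SE 0.67, counting interval 0.45 to 1.12). However, 63.2% of its pPGK and 95.9% of its pPGK_PMA_I reporter reads lay at 1 position each. Without these positions the ratio was -2.20, a value from the small remainder of reads. The Runx3 bin chr4:134762001-134762500 went from 1319 to 890 reads, a log2 ratio of -0.68 (SE 0.16, counting interval -0.81 to -0.56), and was at -0.74 without its top position. The Bcl11b bin low with all 3 promoters, chr12:108663001-108663500, went from 280 to 462 reads, a log2 ratio of 0.61 (SE 0.34, counting interval 0.39 to 0.83).

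Against the pPGK input, 7 member bins of the pPGK_PMA_I library were called above and 3 below (background 7.51% and 9.43%), with a median of 0.61 against 0.06 over all bins. Of the 7, 5 lay in the Bcl11b window, 1 in that of Tcf7 and 1 in that of Lef1. The highest was the Bcl11b bin chr12:109150001-109150500, at 1.35 (SE 0.23) from 883 reporter reads, and at 0.92 (SE 0.36) with pPGK from 604 reads, named after its value was seen. A call in 1 library and not in the other is not a difference between them, and none of the 7 passed the rule in the direct comparison.

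**Figure D4:**
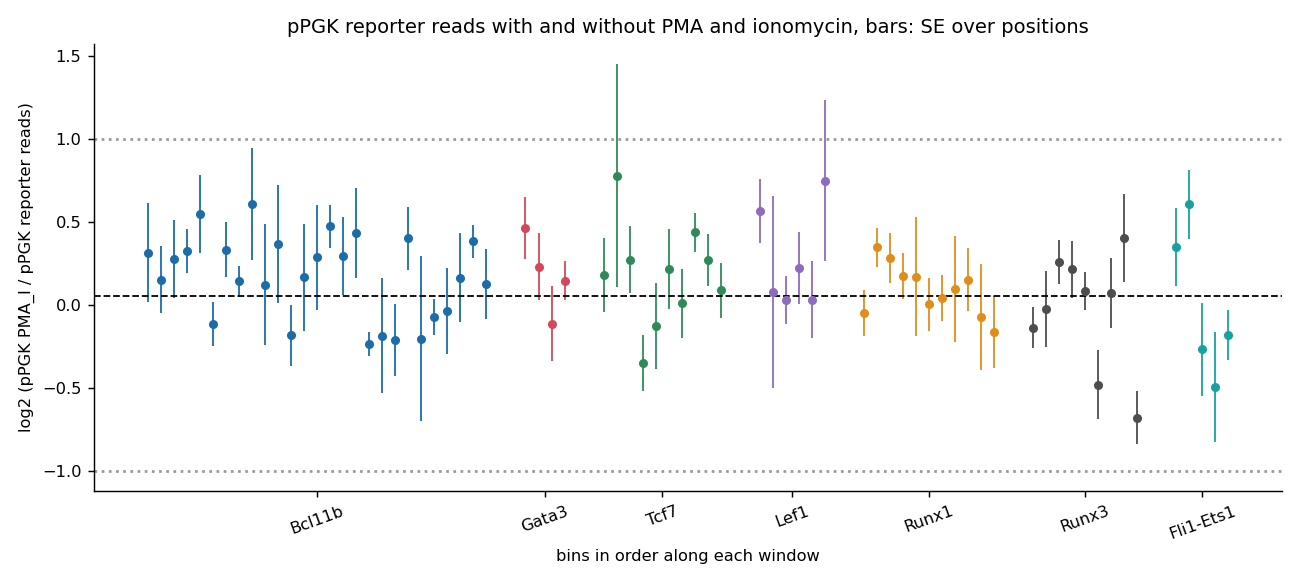
Log2 ratio of pPGK_PMA_I to pPGK reporter reads (vertical axis) for the 72 bins in order along each window (horizontal axis), coloured by window. Points are bins, bars are the SE over positions, the dashed line is the median of all bins tested (0.05) and the dotted lines mark a ratio of 1 in either direction; no point is past a dotted line, from -0.68 at Runx3 to 0.78 at Tcf7.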

How the data were processed

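Per the labels, 4 CapStarr-seq reporter libraries and 3 inputs from P5424 cells were sequenced, 1 library per group. The build was mm9 and the tools included bedtools 2.28.0, SAMtools and Bowtie2, per the submitters' processing notes, which give no order of steps. Without a header, the deposited files hold whole-number read counts per 5′ position in columns 7 and 8, read here as reporter and input counts; no label states this. Column 8 was the same in both pPGK files. The deposited mapping quality score in column 5 was never under 30 in the SCP1 and pR-Ea files but reached 0 in the pPGK files, so a position was used only where no file listed it under 30. Of the reporter reads, 64.1% in the pPGK file and 98.9% in the pPGK_PMA_I file scored at least 30.

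A position listed on both strands carries equal counts on 2 lines and was counted once, at the mean of its midpoints (fragments of 315 bp). Counts were summed in 500 bp bins, and bins with at least 50 reads in each input were scaled to their library's total over those bins. Ratios (pseudocount 1) were called at a log2 size of 1 with an exact 95% interval over at least 50 reads in 2 counts; promoter pairs used the SE over positions. The SE allows for positions that reporter and input share. It replaced a form that took them as unrelated, after that form had been computed and its calls seen. The placing of positions on both strands was also chosen after the files were seen.

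In each window the bins with the highest and lowest mean activity and with most input were named, with bins called with all 3 promoters and the largest promoter differences, and the neighbours in their stretch; other bins are marked as named after their values were seen. The members and lists were chosen with earlier results of these data known. Alternatives were distinct positions, each file's own score filter, a median of 0, bins shifted by 250 bp, leaving out the top position, and those added later. The top position was left out of each reporter and each input on its own, and the input minimum was not applied again. Python 3.11.15, pandas 2.3.3, numpy 2.4.6 and scipy 1.17.1 were used.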

Additional observations from a re-analysis of the deposited data

Results flagged for a closer look

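In the 7 windows, 45.86% of the pPGK reporter reads and 49.69% of the pPGK_PMA_I reporter reads lay outside the 72 member bins. The share of their common input reads was 43.81%. These bins were not used in the comparisons. Because members were chosen by their input reads, the input's share outside them depends on that choice. With SCP1 the share outside was 41.9% of reporter and 46.2% of input reads, and with pR-Ea 47.6% and 49.3%, in the opposite direction. These shares rest on 1 library each and were not tested.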

How the results depend on the processing

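Of 128 counts of called member bins recomputed under other settings, 92 stayed within 1.5 times the reported count and 36 did not. Some of the 92 could not move. Promoter pairs already used the interval over positions, and the other comparisons did not use the SE in their calls. The causes of the moves were not tested. With distinct positions in place of reads, the bins above input numbered 1 (SCP1), 2 (pPGK), 0 (pR-Ea) and 2 (pPGK_PMA_I), and 0 were below in each; pPGK was higher than SCP1 in 1 bin and lower in 1, and pR-Ea was lower in 1 bin and higher in 0 against either of the others. Filtering each file on its own score (73 members of 30519 bins) gave 0 higher with pR-Ea (all bins 0.862%) and 4 higher with pPGK_PMA_I (6.56%). With the median set to 0, pPGK against SCP1 had 1 lower (all bins 4.12%) and pR-Ea against pPGK 2 lower (5.18%). Set in the same way, pR-Ea against SCP1 had 2 higher and 7 lower (6.75% and 7.91%). Bins shifted by 250 bp (74 members) gave 7 higher and 7 lower with SCP1 (all bins 3.74% and 14.6%) and 3 higher with pPGK (3.74%). They also gave 0 higher and 2 lower with pR-Ea (0.865% and 8.29%), and 1 lower for pPGK against SCP1 (2.68%). Without the position with most reads, 10 were higher with pPGK (all bins 6.32%) and 2 lower with pR-Ea (8.97%). In that run 2 were lower for pPGK_PMA_I against pPGK (1.42%) and 1 lower for pPGK against SCP1 (2.13%).

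Some alternatives were chosen after seeing the data. An interval over positions, which repeats the promoter pairs as reported, moved no other count past 1.5 times. Leaving out positions on both strands gave 2 lower for pR-Ea against SCP1 (all bins 6.03%). The SE with unrelated positions left 0 bins higher with pPGK than SCP1 (1.59%). It left pR-Ea higher in 1 and lower in 1 against SCP1 (5.14% and 3.37%), and 0 and 0 against pPGK (2.1% and 1.23%). The members' median activity exceeded that of all bins by 0.15 to 0.32 with SCP1, 0.22 to 0.39 with pPGK, 0.16 to 0.25 with pR-Ea and 0.28 to 0.60 with pPGK_PMA_I over all settings. For pPGK_PMA_I against pPGK, the members' median ratio exceeded that of all bins by 0.07 to 0.11. Setting the median to 0 or changing the interval or the SE cannot change these differences. No replicate could be left out. No paired analysis was possible because each group holds 1 library, and the results come from no replicate test. Input depth limits the smaller bins, where as few as 52 reads set the ratio.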
